A study of Mus musculus with 6 samples.

Results

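RAW264.7 cells were given titanium (Ti) particles or phosphate-buffered saline (PBS). Examined in them were the 78 protein-coding genes whose names begin with Mrpl or Mrps, names that stand for proteins of the mitochondrial ribosome. They were chosen by gene name in the mouse annotation GENCODE vM21, and they make up 78 of 55536 annotated genes and 78 of 22028 protein-coding genes. The Mrpl names gave 49 large-subunit genes and the Mrps names 29 small-subunit genes, with 343 annotated transcripts in all. RAW264.7 is an established mouse macrophage line, so all libraries come from a single tumour-derived line. The labels list the strain background C57BL/6, which was not checked against the origin of the line. The control group (Ctrl) holds 3 libraries of cells given PBS and the other group (Ti) 3 libraries of cells given Ti particles, the kind of wear debris that metal implants shed. Total RNA was sequenced. The sources used here give neither the particle dose nor the length of exposure. The labels do not call the libraries of a group separate cultures. The spread that p-values rest on is that between these libraries and may be technical.

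Mitochondria carry their own ribosome, which translates the few messages encoded in mitochondrial DNA, all of them for membrane subunits of the respiratory chain and the ATP synthase. Its RNAs are transcribed inside the organelle, whereas all of its proteins are encoded in the nucleus, made in the cytosol and imported. The small subunit binds and decodes the message, and the large subunit joins the amino acids. Mammals have 3 relatives of the bacterial ribosomal protein S18 in this particle, encoded by Mrps18a, Mrps18b and Mrps18c. In structures of the mammalian particle the products of Mrps18b and Mrps18c sit in the small subunit and that of Mrps18a in the large one. The grouping here follows the gene names, so Mrps18a counts as a small-subunit gene. Whether the product of each other member belongs to the particle, and to the subunit of its name, was not checked.

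Mrps18c was singled out because its difference between the groups was already known, so its values are given as a description, and no p-value or call is read from it. Mrps18c (ENSMUSG00000016833) lies on GRCm38 chromosome 5 from 100798627 to 100804471 on the plus strand. Its principal transcript, Mrps18c-201 (ENSMUST00000016977), carries most of the difference in annotated rows and has 429 coding bases without the stop codon. Coding bases 138 to 395 are shown 5′ to 3′ from the GENCODE vM21 transcripts, because they hold the exon at which the coding transcripts differ. Exon 4 is in capitals, the 58 bases that transcript Mrps18c-202 leaves out (chr5:100803053-100803110), with 100 bases of flanking exons on each side.
Mrps18c-201: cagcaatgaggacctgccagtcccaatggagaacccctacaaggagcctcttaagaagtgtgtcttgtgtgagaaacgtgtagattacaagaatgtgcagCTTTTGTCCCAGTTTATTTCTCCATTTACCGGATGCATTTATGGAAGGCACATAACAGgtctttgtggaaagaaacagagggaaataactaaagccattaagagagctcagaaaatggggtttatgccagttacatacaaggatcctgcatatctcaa

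The 3 coding transcripts of Mrps18c differ at this exon and at the 3′ end. The junctions around exon 4, with 15 bases on each side and exon 4 in capitals, tell Mrps18c-201 from Mrps18c-202.
Mrps18c-201, exons 3 and 4: tacaagaatgtgcagCTTTTGTCCCAGTTT
Mrps18c-201, exons 4 and 5: GAAGGCACATAACAGgtctttgtggaaaga
Mrps18c-202, exons 3 and 5: tacaagaatgtgcaggtctttgtggaaaga
The coding sequence of Mrps18c-202 is 264 bases long and that of Mrps18c-203, whose last exon reads on past the end of exon 5, is 384 bases. The paralogs are longer, with 588 coding bases in Mrps18a-201 and 762 in Mrps18b-201. The longest run of identical bases between coding sequences was 8 for Mrps18c with either paralog and 10 for Mrps18a with Mrps18b.

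Values per gene are normalised counts on the CPM scale, made from the deposited estimated counts of annotated transcripts after each was multiplied by exon length over genomic span. Rescaled annotated counts summed to between 37686020 and 60242937 per library, and 3 counts, taken as the floor of detection for counting error only, corresponded to 0.0498 to 0.0796 CPM. Rows for assembled transcripts, which carry no gene or position, held 36.9% to 51.2% of the deposited totals. All 9 macrophage markers had a mean of at least 1 CPM, and their sum was 5618 to 7471 CPM in Ctrl and 6968 to 8797 CPM in Ti. Of 5 osteoclast markers 3 had a mean of at least 1 CPM, Calcr was at 0, and their sum was 13.9 to 16.2 CPM in Ctrl and 19.0 to 36.6 CPM in Ti. Summed fibroblast markers reached at most 0.0536 CPM and epithelial markers at most 0.0215 CPM in any library, with Col1a2, Col3a1, Dcn, Cdh1, Epcam and Krt18 at 0 throughout. Of 4 T cell markers 1 had a mean of at least 1 CPM, with sums of 1.20 to 1.39 CPM in Ctrl and 1.50 to 1.74 CPM in Ti. The 3 endothelial markers summed to 0.199 to 0.297 CPM in Ctrl and 0.107 to 0.873 CPM in Ti. The part of the osteoclast and T cell marker differences in the results below was not tested.

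Of the Mrps18 genes, the annotated rows of Mrps18c stood near the floor in Ctrl and above 25 CPM in Ti, while those of its paralogs were at like levels in both groups. Mrps18c was at 0.219, 0.199 and 0.192 CPM in Ctrl replicates 1, 2 and 3 and at 26.5, 32.2 and 25.2 CPM in Ti replicates 1, 2 and 3. Every Ti library lay far above every Ctrl library. The means were 0.203 ± 0.0140 and 28.0 ± 3.72 CPM (SD, n = 3 per group). The fitted log2 fold change was 7.08 ± 0.21 (SE).

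Mrps18a (ENSMUSG00000023967, GRCm38 chromosome 17, 46110986 to 46128910, plus strand) was at 52.5, 56.2 and 52.2 CPM in Ctrl and at 56.0, 52.4 and 49.5 CPM in Ti. The groups overlapped, and the log2 fold change was -0.03 ± 0.10, with an adjusted p of 0.992 in edgeR's quasi-likelihood test (Benjamini-Hochberg over 15376 genes). Mrps18b (ENSMUSG00000024436, chromosome 17, 35910379 to 35916389, minus strand) was at 41.0, 40.5 and 38.3 CPM in Ctrl and at 40.4, 45.5 and 41.5 CPM in Ti. Its groups overlapped too, with a log2 fold change of 0.09 ± 0.11 (edgeR adjusted p = 0.956). Neither paralog was lower in all Ti libraries than in all Ctrl libraries, and neither passed the test.

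Annotated rows were divided by exon length, so that genes can be set side by side. In them Mrps18c made up 0.774%, 0.716% and 0.674% of the summed level of the 3 genes in the Ctrl libraries and 28.6%, 32.7% and 27.9% in the Ti libraries. The share of Mrps18a was 55.4%, 59.2% and 56.5% in Ctrl and 42.3%, 37.0% and 38.2% in Ti. That of Mrps18b was 43.9%, 40.1% and 42.8% in Ctrl and 29.1%, 30.3% and 33.9% in Ti. These are shares of one sum, so a larger share of Mrps18c lowers the other shares without any difference in their own CPM. Assembled rows, which have no known exon length, are left out of these shares. Those next to the Mrps18c rows held 99.6% to 99.7% of the deposited sum in Ctrl and at most 2.43% in Ti (below). The shares therefore describe annotated rows and not the make-up of the 3 genes as a whole.

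**Figure D1:**
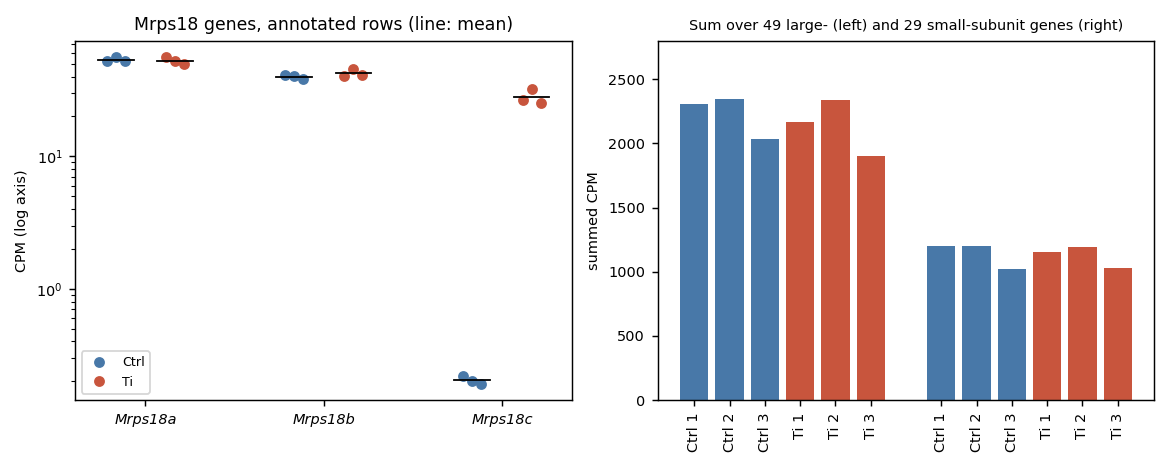
Left, CPM of Mrps18a, Mrps18b and Mrps18c from annotated rows on a log axis, with a point for each of 3 Ctrl (blue) and 3 Ti (red) libraries and a line at the mean. Right, CPM per library summed over the 49 large-subunit and the 29 small-subunit genes. Mrps18c stands at 0.192 to 0.219 CPM in Ctrl and 25.2 to 32.2 CPM in Ti, whereas both paralogs and both sums overlap between the groups.

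Most of the Mrps18c difference was in 1 transcript, and the other coding transcripts had the same pattern at lower values. In deposited estimated counts, before any rescaling, Mrps18c-201 was at 1 in each of the Ctrl libraries and reached 10259, 9931 and 9583 in the Ti libraries. Mrps18c-203 was at 1 in each Ctrl library and at 429, 406 and 766 in Ti, and Mrps18c-202 was at 1 in each Ctrl library and at 574, 248 and 392 in Ti. Mrps18c-206, whose annotated type is nonsense-mediated decay, stood at 1, 0 and 1 in Ctrl and at 0, 404 and 273 in Ti, so the lowest Ti library did not differ from the control ones.

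The remaining transcripts of the gene did not share this order. Mrps18c-205, a retained-intron transcript at the 3′ end, was at 28, 16 and 15 in Ctrl and at 13, 16 and 5 in Ti. It supplied most of the rescaled Mrps18c count in Ctrl, 12.9, 7.37 and 6.91 counts. Mrps18c-204, a retained-intron transcript at the 5′ end, was at 1 or 2 in every library. Gm43511, an unconfirmed single-exon gene that overlaps Mrps18c on the same strand, was at 66, 35 and 120 in Ctrl and at 34, 61 and 113 in Ti, and overlapped between the groups.

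An all-or-none pattern was rare among the members and in the annotation. A transcript was counted as absent below 3 rescaled counts in each library of a group and as present at 30 or more in each library of the other group. By this rule 2 of the 343 mitoribosomal transcripts were present in Ti only, Mrps18c-201 and Mrps18c-203, and 0 in Ctrl only. Over all 141862 annotated transcripts the counts were 28 present in Ti only (0.0197%) and 36 present in Ctrl only (0.0254%). With presence set at 100 or more, 1 member transcript, Mrps18c-201, was present in Ti only and 0 in Ctrl only, against 0.00916% and 0.00987% of all annotated transcripts. Since Mrps18c was chosen for this difference, nothing is read from its count.

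Assembled rows next to the Mrps18c rows in the deposited order held the opposite pattern. The order of the files is mostly genomic: 89.1% of 141861 consecutive annotated row pairs lay within 100 kb of each other on one chromosome. The assembled row directly before Mrps18c-201, TCONS_00161938, was at 9022, 6542 and 4912 in Ctrl and at 277, 249 and 0 in Ti. Its values in Ctrl lay below those of Mrps18c-201 in Ti, and the groups did not overlap in either row. A second assembled row, TCONS_00161933, which stands between rows of Mrps18c, was at 43, 31 and 17 in Ctrl and at 4, 2 and 0 in Ti. The files give neither row a gene, a strand or a position, so whether they belong to Mrps18c is not stated and was not tested.

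Of the 4 rows with identifiers between these, 3 were at 0 in every Ti library, while TCONS_00161934 was highest in Ti replicate 3, at 183, against 110, 73 and 23 in Ctrl. All 4 stand among the rows of the neighbouring gene Helq and summed to 1836, 1003 and 974 in Ctrl and to 0, 0 and 183 in Ti. All 6 consecutive rows together held 10901, 7576 and 5903 in Ctrl and 281, 251 and 183 in Ti. Helq, which encodes a DNA helicase, lies 28 bases from Mrps18c on the minus strand (chromosome 5, 100762145 to 100798598).

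With the 2 neighbouring assembled rows added, the Mrps18c difference was much smaller. The deposited values of its annotated rows summed to 33, 20 and 20 in Ctrl and to 11276, 11007 and 11020 in Ti, and those of the 2 assembled rows to 9065, 6573 and 4929 in Ctrl and 281, 251 and 0 in Ti. The assembled rows therefore held 99.6%, 99.7% and 99.6% of this sum in Ctrl and 2.43%, 2.23% and 0% in Ti. In CPM of unrescaled values the sum was 9.82, 11.6 and 8.30 in Ctrl and 17.2, 20.9 and 16.0 in Ti. The Ti libraries still lay above the Ctrl libraries, with means of 9.89 ± 1.63 and 18.0 ± 2.58 CPM (SD, n = 3 per group) and a log2 fold change of 0.87 ± 0.18. Unrescaled values grow with genomic span, and the span of the assembled rows is not known. The Ctrl sum rests on assembled rows and the Ti sum on annotated rows, so the sums may differ in scale. The part of span in this remaining difference was not tested.

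The protein-coding genes on either side of Mrps18c did not pass the test. Helq was at 3.56, 5.06 and 4.63 CPM in Ctrl and at 2.27, 9.29 and 7.53 CPM in Ti, a log2 fold change of 0.53 ± 0.51 (edgeR adjusted p = 0.938). Abraxas1, which encodes a scaffold of a BRCA1 complex and lies 720 bases away on the other side, was at 12.7, 13.1 and 13.9 CPM in Ctrl and at 12.7, 14.0 and 10.3 CPM in Ti. Its log2 fold change was -0.11 ± 0.17 (edgeR adjusted p = 0.967). The groups overlapped in both genes.

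Among the other members no gene passed the test, and most values lay close to no difference. All 78 genes passed the filter on low counts, so no member was left out of the fit, although Mrps18c did so through its Ti libraries. Mrps18c is left out of the counts in this paragraph and the next, because it was chosen for its difference. Later counts over all 78 members or all small-subunit genes include it. With edgeR at an adjusted p under 0.05, 0 of the 77 others were called higher and 0 lower, against 0.013% of all genes tested in each direction. At an unadjusted edgeR p under 0.05, 0 of the 77 were higher, against 3.42% of all genes, and 2 were lower, Mrpl28 and Mrps11, against 3.34%. DESeq2 called 0 of the 77 higher and 0 lower, where it called 1.06% of all genes higher and 0.839% lower. Its unadjusted p was under 0.05 for 0 of them higher, against 4.52% of all genes, and for Mrpl28 and Mrps11 lower, against 4.01%.

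The replicate number as a block and the addition of neighbouring assembled rows gave 0 calls among the 77 as well. With the block, edgeR called 0% of all genes in either direction. At an unadjusted p under 0.05, 0 of the 77 were then higher (5.04% of all genes) and 4 were lower, Mrpl3, Mrpl21, Mrpl28 and Mrps6 (4.32%). The direction of Mrpl3, a counterpart of a bacterial large-subunit protein, depended on the values used: its log2 fold change was -0.27 ± 0.18 without the block, 0.30 with unrescaled values and 0.38 ± 0.16 with assembled rows. The assembled rows were added to unrescaled values throughout, so fits with them differ from the main fit in scaling too. With the assembled rows edgeR called 0 of the 77 higher, against 0.0288% of genes, and 0 lower, against 0.0096%. At an unadjusted p under 0.05, 0 of them were there higher (3.59%) and 2 were lower, Mrpl14 and Mrpl28 (3.61%). Mrpl28 was lower at an unadjusted p under 0.05 in each of these 4 fits.

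Large-subunit genes as a group stood near no difference. Of 49 genes 21 had a positive and 28 a negative log2 fold change, with a median of -0.032 and quartiles of -0.19 and 0.054. The median over all 15376 genes tested was 0.0053, with quartiles of -0.18 and 0.22. Within 0.5 of no difference on the log2 scale lay 47 of the 49 genes, and the other two, Mrpl19 and Mrpl21, were lower. Summed CPM of the 49 genes was 2310, 2347 and 2034 in Ctrl and 2170, 2337 and 1900 in Ti. The groups overlapped, and the library numbered 3 was the lowest of each group. The means were 2231 ± 171 and 2136 ± 221 CPM, a difference of -4.26% that is smaller than the spread within a group. Between same-numbered libraries Ti was lower in 3 of 3 pairs.

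Small-subunit genes gave a like picture. Of 29 genes 15 had a positive and 14 a negative log2 fold change, with a median of 0.013, which was 0.0036 without Mrps18c. Within 0.5 of no difference lay 26 of them, and the other 3 were Mrps18c, Mrps11 and Mrps12. Summed CPM was 1197, 1202 and 1018 in Ctrl and 1151, 1193 and 1026 in Ti, with means of 1139 ± 105 and 1123 ± 86.8 CPM. Here too the groups overlapped and the libraries numbered 3 were lowest, and Ti was lower in 2 of 3 same-numbered pairs. Both subunits together had 73 of 78 genes (93.6%) within 0.5, against 12325 of 15376 (80.2%) over all genes tested.

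**Figure D2:**
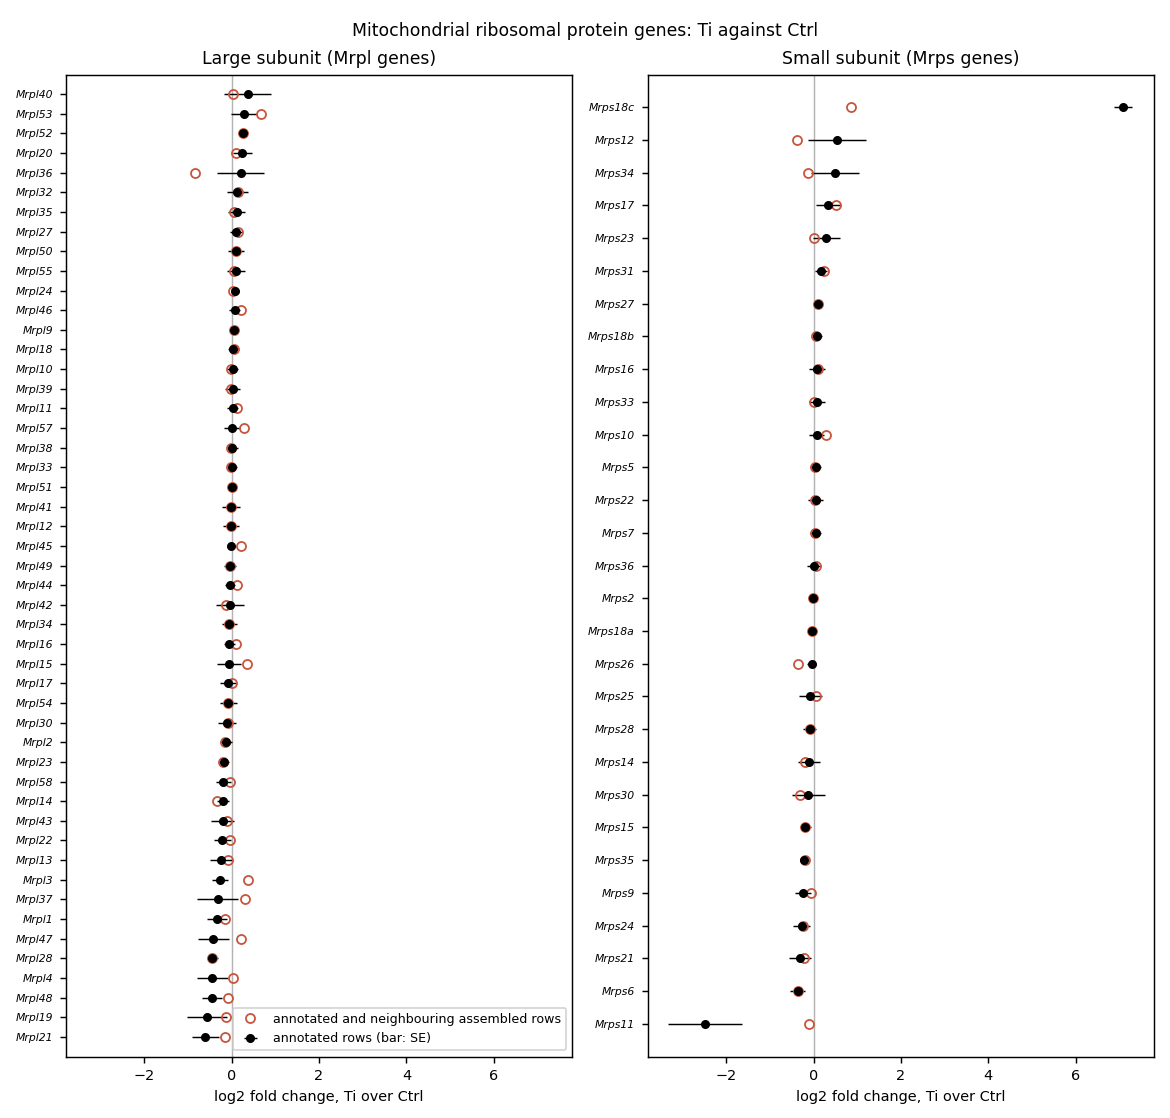
Log2 fold change, Ti over Ctrl, of the 49 large-subunit and 29 small-subunit genes, 1 line a gene. Black points are rescaled annotated rows with bars of 1 standard error. Open circles are unrescaled values with neighbouring assembled rows added. Outside the window of 0.5 on either side stand 5 black points, Mrps18c (7.08), Mrps12 (0.54), Mrpl19 (-0.57), Mrpl21 (-0.60) and Mrps11 (-2.48).

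Few members had groups that did not overlap in CPM. Mrps18c aside, the 3 Ti libraries lay above the 3 Ctrl libraries in 3 members, Mrpl24, Mrpl52 and Mrps31, against 6.63% of all genes tested. They lay below in 4 members, Mrpl23, Mrpl28, Mrps11 and Mrps35, against 6.71%. Neither share of the members exceeds that of all genes.

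Of the large-subunit genes, Mrpl28 had the smallest p. Mrpl28 (ENSMUSG00000024181, chromosome 17, 26123500 to 26126613, plus strand) encodes a counterpart of a bacterial large-subunit protein. It was at 60.5, 64.4 and 52.5 CPM in Ctrl and at 40.7, 48.9 and 41.1 CPM in Ti. The groups did not overlap, and the log2 fold change was -0.44 ± 0.13 (edgeR unadjusted p = 0.0165, adjusted p = 0.571). The only assembled row next to it was at 0 in every library, so its value does not rest on such rows (log2 fold change of -0.45 with them).

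The next large-subunit genes in order of p were Mrpl52, Mrpl48, Mrpl21 and Mrpl23. Mrpl52, a protein found in the mitochondrial ribosome and not in the bacterial one, was at 50.1, 53.3 and 46.9 CPM in Ctrl and at 54.0, 63.5 and 62.8 CPM in Ti. Its groups stood apart by a narrow gap, with a log2 fold change of 0.26 ± 0.12 (edgeR adjusted p = 0.761). Mrpl23, a counterpart of a bacterial protein near the exit of the peptide tunnel, was at 40.4, 39.7 and 36.6 CPM in Ctrl and at 35.6, 34.9 and 33.0 CPM in Ti. Its groups were also separated narrowly, and its log2 fold change was -0.17 ± 0.11 (edgeR adjusted p = 0.851). Mrpl21, with overlapping groups, averaged 12.4 ± 3.31 CPM in Ctrl and 8.18 ± 2.72 CPM in Ti, with a log2 fold change of -0.60 ± 0.31 (edgeR adjusted p = 0.816). It was lower with Ti in 3 of 3 same-numbered pairs. Neighbouring assembled rows held 59.4% of its sum, and with them the log2 fold change was -0.14 ± 0.17. Mrpl48 had -0.44 ± 0.22, -0.20 with unrescaled values, and -0.07 ± 0.14 with assembled rows added to these.

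Of the small-subunit genes, Mrps11 had the smallest p after Mrps18c. Mrps11 (ENSMUSG00000030611, chromosome 7, 78783119 to 78792989, plus strand) encodes a counterpart of a bacterial protein of the small subunit's platform. It was at 8.61, 4.14 and 15.3 CPM in Ctrl and at 2.96, 1.71 and 0.333 CPM in Ti. All Ti libraries lay below all Ctrl libraries, although values within a group differed several-fold. The log2 fold change was -2.48 ± 0.84 (edgeR unadjusted p = 0.0247, adjusted p = 0.635). Leaving out 1 library at a time gave -3.20 (without Ti replicate 1) to -1.93 (without Ctrl replicate 3).

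The assembled rows next to the Mrps11 rows were not lower in Ti. The annotated rows held deposited values of 5104, 1537 and 5831 in Ctrl and 1271, 616 and 157 in Ti, and 6 neighbouring assembled rows held 12780, 9364 and 3237 in Ctrl and 9900, 8286 and 11136 in Ti. The library with the most in annotated rows, Ctrl replicate 3, had the least in assembled rows. The sum was 17.9 ± 2.31 CPM in Ctrl and 16.5 ± 0.112 CPM in Ti, a log2 fold change of -0.11 ± 0.12 (edgeR adjusted p = 0.937). Of these 6 rows 4 also stand next to rows of Mrpl46, a large-subunit gene, so they cannot be assigned to Mrps11.

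Mrps6, Mrps35 and Mrps15 followed in order of p. Mrps6, a counterpart of a bacterial small-subunit protein, was at 142, 129 and 99.2 CPM in Ctrl and at 101, 103 and 82.9 CPM in Ti. Its groups overlapped through Ctrl replicate 3, although Ti was lower in 3 of 3 same-numbered pairs, and its log2 fold change was -0.36 ± 0.17 (edgeR adjusted p = 0.769). Mrps35, a protein particular to mitochondrial ribosomes, was at 48.1, 47.0 and 42.2 CPM in Ctrl and at 39.3, 40.3 and 38.7 CPM in Ti. The Ti libraries all lay lower, by a log2 fold change of -0.21 ± 0.11 (edgeR adjusted p = 0.804), and Mrps15 had -0.19 ± 0.13.

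Several members had 1 or 2 libraries far from the rest of both groups, and neighbouring assembled rows were often high in those libraries. At least 1 library lay more than 2-fold from the gene's median over the 6 libraries in 8 of 78 members, against 27.2% of all genes tested: Mrpl19, Mrpl36, Mrpl37, Mrpl40, Mrps11, Mrps12, Mrps18c and Mrps34. In unrescaled values the same 8 did so, against 34.1%. After addition of the neighbouring assembled rows 5 did so, against 27.7%: Mrpl36 and Mrps12 from the first list, with Mrpl53, Mrps17 and Mrps30. Of the 78 members 67 had at least 1 such assembled row and 11 had none. The assembled rows held a median of 14.8% of the annotated and assembled sum over the members, and over 50% in 16 of them. The same values over all genes are not given here, so nothing particular to the members is read from them.

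In Mrpl37, a large-subunit protein particular to mitochondrial ribosomes, Ti replicate 3 stood apart. The gene was at 77.2, 69.6 and 67.6 CPM in Ctrl and at 78.6, 73.1 and 20.8 CPM in Ti. Its annotated rows held a deposited value of 2479 in Ti replicate 3, against 14770 to 28855 in the other 5 libraries. The assembled row TCONS_00154268 held 25360 in Ti replicate 3 and 36 to 118 elsewhere. The log2 fold change was -0.31 ± 0.47 from annotated rows and 0.30 ± 0.15 with the neighbouring assembled rows (edgeR adjusted p = 0.967 and 0.762).

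Mrpl19 and Mrpl36, counterparts of bacterial large-subunit proteins, each had 1 library low in annotated rows and high in neighbouring assembled rows. Whether those assembled rows belong to either gene was not tested. Mrpl19 was at 67.7, 76.1 and 63.8 CPM in Ctrl and at 68.9, 53.8 and 17.6 CPM in Ti, with Ti replicate 3 lowest. Its neighbouring assembled rows held 4118 in Ti replicate 3 and 26 to 1212 in the others, and its log2 fold change moved from -0.57 ± 0.46 to -0.12 ± 0.13 with them. Mrpl36 was at 8.53, 40.7 and 29.6 CPM in Ctrl and at 32.9, 33.7 and 24.3 CPM in Ti, with Ctrl replicate 1 lowest. Its assembled rows held 11677 in Ctrl replicate 1 and 646 to 1095 in the others. With these rows the Mrpl36 sum did not level out, at 13.4 CPM in Ctrl replicate 1 and 3.76 to 4.88 CPM elsewhere. Its log2 fold change went from 0.21 ± 0.53 to -0.84 ± 0.51.

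Mrps34, Mrpl40 and Mrps12 completed the list. Mrps34 was lowest in Ctrl replicate 1, at 3.35 CPM against 12.9 to 17.4 CPM elsewhere, and its assembled rows were highest there, at 2210 against 567 to 910. Its log2 fold change of 0.49 ± 0.55 became -0.13 with them. Mrpl40 was lowest in the libraries numbered 3, at 7.62 and 6.41 CPM, and its log2 fold change went from 0.37 ± 0.54 to 0.02. Mrps12, a counterpart of a bacterial protein of the decoding centre, ranged from 3.07 to 14.7 CPM with overlapping groups, and went from 0.54 ± 0.67 to -0.38 ± 0.58.

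**Figure D3:**
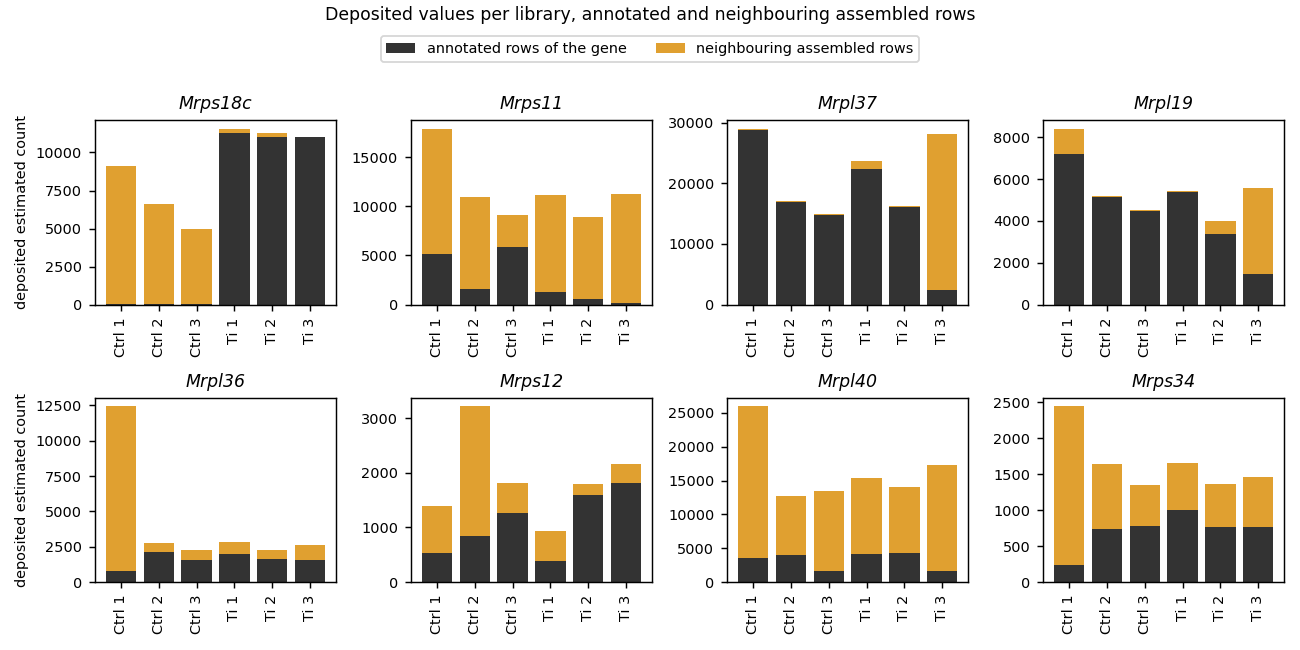
Deposited estimated counts per library for members in which a library or group stood apart, with annotated rows of the gene in dark grey and neighbouring assembled rows stacked on them in orange. The bars start at 0. In Mrps18c the orange part makes up 99.6% to 99.7% of each Ctrl bar and at most 2.43% of each Ti bar, and in Mrpl37 it fills most of the bar in Ti replicate 3 alone.

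Levels per exon length differed widely between members. In these units, in which the levels of all genes of a library share one total and where only differences between genes are meaningful, the large-subunit genes had a median level of 37.6 and ranged from 1.76 ± 0.250 (SD, n = 6) in Mrpl43 to 163 ± 18.6 in Mrpl52. Mrpl12, which encodes a counterpart of the bacterial stalk protein, was at 158 ± 15.4, a level that does not differ from that of Mrpl52 beyond the spread, and Mrpl33 was at 131 ± 8.90. The small-subunit genes had a median of 29.7, with Mrps6 at 160 ± 27.3, Mrps15 at 81.1 ± 6.77 and Mrps18a at 74.5 ± 6.70. The lowest by the mean over 6 libraries were Mrps25 at 9.25 ± 1.73 and Mrps11 at 7.07 ± 7.34, whose groups did not overlap. Mrpl53 was at 4.14 ± 1.02. The lowest member of all differed by group: Mrps18c in Ctrl, at 0.947 ± 0.0377 (SD, n = 3), and Mrpl43 in Ti, at 1.71 ± 0.275. Mrpl53, Mrpl43 and Mrps11 are among the 16 whose neighbouring assembled rows held over 50% of the sum. In Ctrl such rows held 99.6% of the Mrps18c sum. A level from annotated rows therefore leaves out most of the estimated count next to these genes, for Mrps18c in Ctrl only.

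The type of transcript that carried the counts also differed. In 9 of 78 members over 50% of rescaled counts were in transcripts not annotated as protein-coding, such as retained-intron transcripts, against a median of 5.64% over the members. They were Mrpl38 (99.5%), Mrps9 (97.9%), Mrps34 (97.5%), Mrpl21 (94.4%), Mrpl53 (94.2%), Mrpl43 (84.1%), Mrpl13 (75.3%), Mrpl48 (69.3%) and Mrps5 (58.4%). How often this occurs over all genes is not given here. Mrpl38 nevertheless was at 43.0 to 55.5 CPM in the 6 libraries, with overlapping groups and a log2 fold change of 0.01 ± 0.13. In Mrps18a and Mrps18b the principal coding transcripts led in every library: Mrps18a-201 held deposited values of 29722 to 52845 and Mrps18b-201 of 4298 to 7829. Mrps18b-202 was at 0 in the libraries numbered 3 of both groups and at 617 to 1220 in the other 4.

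Other genes of mitochondrial translation, in 6 lists with 58 genes, all tested, gave no edgeR call. At an adjusted p under 0.05 edgeR called 0 of 58 higher and 0 lower, against 0.026% of all genes in either direction, with 7 at an unadjusted p under 0.05 (6.76% of all genes), and DESeq2 called 2, Mtif3 higher (1.06% of all genes) and Rbfa lower (0.839%). Of the 58 genes 25 had a positive and 33 a negative log2 fold change, with a median of -0.038. The median was -0.031 for 5 ribosomal proteins with other names, 0.012 for 10 translation factors, -0.0089 for 20 assembly and ribosomal RNA modification factors, -0.14 for 17 mitochondrial aminoacyl-tRNA synthetases and 0.032 for 4 transcription genes.

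The genes that DESeq2 called were Mtif3, a mitochondrial translation initiation factor, and Rbfa, a ribosome-binding assembly factor of the small subunit. Mtif3 averaged 4.22 ± 0.773 CPM in Ctrl and 8.15 ± 1.39 CPM in Ti (SD, n = 3 per group). The fitted log2 fold change of Mtif3 was 0.95 ± 0.23, with an adjusted p of 0.421 in edgeR and 0.0134 in DESeq2. Rbfa averaged 64.7 ± 0.307 CPM in Ctrl and 51.3 ± 1.67 CPM in Ti. Its log2 fold change was -0.34 ± 0.09, with an adjusted p of 0.473 in edgeR and 0.0163 in DESeq2. Among the others with small p, Vars2, the mitochondrial valyl-tRNA synthetase, averaged 46.1 ± 1.28 and 35.0 ± 3.35 CPM (edgeR adjusted p = 0.537). Tfb2m, a mitochondrial transcription factor, averaged 6.96 ± 0.466 and 9.96 ± 1.41 CPM (edgeR adjusted p = 0.646). Gadd45gip1, from the ribosomal proteins with other names, was at 2.69, 2.27 and 0.288 CPM in Ctrl and at 0.429, 0.214 and 0.582 CPM in Ti. Its groups overlapped, with a log2 fold change of -2.08 ± 0.83 (edgeR adjusted p = 0.731). The mitochondrial ribosomal RNAs mt-Rnr1 and mt-Rnr2 each had a log2 fold change of -0.26, and neither passed.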

How the data were processed

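The deposited files hold estimated counts per transcript as the authors made them, 187351 rows per library. Per the submitters' processing notes, HISAT2 and StringTie were used with genome build mm9. The tool that counted, and all versions, are not given in the sources read. The transcript identifiers of 141862 rows matched GENCODE vM21, so names, coordinates and sequences are from that annotation (GRCm38). The other 45489 rows are assembled transcripts. Because the values grow with genomic span, each was multiplied by exon length over span, summed per gene and rounded.

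The test was edgeR 4.0.16's quasi-likelihood test (TMM, filterByExpr, Benjamini-Hochberg at 0.05) in R 4.3.3, with DESeq2 1.42.0 as an alternative. Both were checked on simulated data. Python 3.11.15, pandas 2.3.3 and matplotlib 3.10.9 were used. The test is made for counts, and rescaled estimated counts were used, as the design had set. Standard errors are the log2 fold change over the root of the F statistic. In a chi-square over genes, no libraries of the same group agreed within sampling noise. The values are not numbers of reads, so this cannot tell whether the libraries are separate cultures. Same-numbered libraries deviated together from their group means (correlations 0.110, 0.144 and 0.266, against -0.170 to 0.0402 for other pairs). Same-numbered pairs and a fit with the number as a block are therefore given beside the main results. The main edgeR fit and DESeq2 did not use this pairing. Since deviations from a group mean sum to 0, some correlations of other pairs are pushed down, so the evidence for pairing is weak. This comes from the data, not the labels.

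Named were Mrps18a, Mrps18b and Mrps18c, and per subunit the 5 genes with the smallest p, 3 with the largest change, 3 with the highest and 2 with the lowest level, members past the threshold, up to 3 genes of each other list, and the genes beside Mrps18c. Of the last 2 kinds and of members, which to describe further (Mrpl37, Mrpl36, Mrps34, Mrpl40, Mrpl38) was chosen after values were seen. Members, lists and tests were chosen with earlier results of these data known. Alternatives were other filters and scalings, unrescaled values, the block, leaving out each library, and leaving out transcripts absent in one group. Adding neighbouring assembled rows (those next to a gene's rows in the deposited order) to unrescaled values was chosen after seeing the data. A further marker list is not reported here.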

Additional observations from a re-analysis of the deposited data

How the results depend on the processing

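The Mrps18c difference depended on the rows counted. Its log2 fold change of 7.08 was 8.99 with unrescaled values, 2.75 without transcripts absent in one group and present in the other, 0.87 with neighbouring assembled rows, and 6.96 to 7.15 without each library in turn. The count of members called higher by edgeR, 1 (Mrps18c, which was chosen for this difference), was 0 without those transcripts, 0 with neighbouring assembled rows and 0 with the replicate number as a block, where the Mrps18c log2 fold change was 7.07. It was 1, and the count called lower 0, without each library in turn. Nothing is read from the count called higher, since Mrps18c was chosen for its difference. Leaving out transcripts absent in one group also removes the very rows that hold this difference. At 100 counts or more, 1 transcript was absent in one group and present in the other, in place of 2. The block changed no other call. Of the other mitochondrial translation genes DESeq2 called 2 and edgeR 0. The sign turned for Mrps18a without Ctrl replicate 2 (0.0059) and without Ti replicate 3 (0.019), with a range of -0.076 to 0.019. With unrescaled values and neighbouring assembled rows together, the sign turned for 19 of 78 members, a count not given here over all genes. Among them were Mrps12 (0.54 to -0.38), Mrpl3 (-0.27 to 0.38), Mrpl47 (-0.42 to 0.22), Mrpl36 (0.21 to -0.84) and Mrpl37 (-0.31 to 0.30). This setting also leaves out the rescaling, and Mrpl3 was already positive with unrescaled values alone. Without each library in turn, the median was -0.11 to 0.051 for large-subunit and -0.043 to 0.11 for small-subunit genes, and the log2 ratio of summed CPM was -0.13 to 0.015 and -0.094 to 0.041. The cause of these shifts was not tested. Rescaled counts are not numbers of reads, so the depth behind a value is approximate.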
